A study of Homo sapiens with 8 samples.

Results

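HMMR, the hyaluronan mediated motility receptor, is a microtubule-associated protein of the mitotic spindle, and it was followed here together with 9 genes whose products build the spindle or control its assembly. They are TPX2, AURKA, AURKB, PLK1, TACC3, CKAP5, NUMA1, INCENP and BIRC5. The genes were chosen by name, with earlier results of these data known, and each was read from every probe set annotated to it alone. All 10 genes were measured, by 22 probe sets, among 19752 genes in all. The brightest probe set on average stood for its gene. DLD-1, a line of human colorectal adenocarcinoma cells grown in high glucose medium with serum, was transfected by lipofection with 50 nM of a duplex that mimics mature miR-143, or was mock transfected. Total RNA was taken after 24 h from 4 biological replicates of each group and put on 1 array each. A scrambled duplex was not analysed here, so the comparison sets duplex against no duplex, and a sequence-specific response cannot be told apart from a response to any small RNA duplex. The transfection was transient, and all values are averages over the cells of a culture, in which fewer cells in mitosis and less RNA per cell cannot be told apart.

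During mitosis, the GTPase Ran frees spindle assembly factors from importins around the chromosomes. Among these factors is TPX2, which binds the kinase Aurora A (AURKA), activates it and targets it to spindle microtubules. HMMR binds TPX2 and takes part in placing Aurora A activity and in focusing and orienting the spindle. Aurora B (AURKB) acts at centromeres and the midzone in the chromosomal passenger complex with INCENP and survivin (BIRC5). Transcripts of many of these genes accumulate in G2 and M phase, and dividing colon cancer cells express them at high levels.

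The question was whether miR-143 changed the transcripts of this group. MicroRNAs recognise their targets mainly by the seed, bases 2 to 8 of the mature strand. The mature strands of miR-143, from RefSeq (GRCh38.p14, chr5:149428978-149428998 and chr5:149428944-149428965, plus strand), are shown because the duplex mimics mature miR-143. The sequence of the duplex itself is not given in the sources used here. Capitals mark the seed.
hsa-miR-143-3p: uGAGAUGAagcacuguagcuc
hsa-miR-143-5p: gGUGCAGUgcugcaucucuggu

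The values are log2 levels made with RMA. The array medians lay between 7.15 and 7.24. The replicate 4 arrays differed from all others. Principal component 1 (66.9% of the variance) had scores of 25.7 for miR-143 replicate 4 and 26.7 for mock replicate 4, and of -18.8 to -4.3 for the remaining 6 arrays. Same-numbered arrays also deviated together over the genes tested, at r = 0.58 and 0.81 in replicates 3 and 4. In replicates 1 and 2 r was only 0.11 and 0.17, and these miR-143 arrays correlated better with another number. Each comparison was therefore made with limma without pairs, as the main comparison, and with the replicate number as a block, here called with pairs. All 10 listed markers of colorectal epithelium were measured, 8 of them above the median gene. Of 12 measured markers of fibroblasts, vessels, blood and other cells, 3 were above it. The mean level of all 12 lay between 7.08 and 7.29 over the arrays.

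HMMR was lower with miR-143, and it was the only one of the 10 genes to pass the test, which it did with pairs and not without. On its brighter probe set, 207165_at, the log2 level was 11.55, 11.60, 11.39 and 11.52 in miR-143 replicates 1 to 4. It was 12.00, 11.74, 11.79 and 11.95 in mock replicates 1 to 4. Every miR-143 array lay below every mock array. The means were 11.52 ± 0.088 and 11.87 ± 0.13 (SD, n = 4 each), a log2 difference of -0.36, or 22% less transcript. The 95% confidence interval was -0.53 to -0.19 without pairs and -0.49 to -0.23 with pairs. The adjusted p over all genes was 0.481 without pairs and 0.0227 with pairs by limma. The two-sided exact permutation test of the arrays gave p = 0.0286, the smallest that 4 against 4 allows. This p is not adjusted, and every gene with fully separated groups reaches it, which were 244 lower and 142 higher of 19752 genes. Among the 19752 genes, HMMR stood at place 63 by difference on the lower side and at place 83 by p-value with pairs. Its call with pairs ended when replicate 1, 3 or 4 was left out (adjusted p by limma 0.125, 0.129 and 0.146) and held without replicate 2 (0.0166), while the difference stayed between -0.43 and -0.33. It also missed the threshold when all its probe sets were averaged (0.0904) or when each gene was read from its most variable probe set (0.0651).

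The second HMMR probe set, 209709_s_at, reads the same samples and is no independent replicate, but shows whether the difference depends on the probes. Its log2 level was 9.86, 9.94, 9.76 and 9.84 with miR-143 and 10.24, 10.13, 9.99 and 10.43 with mock. The groups again did not overlap, and the log2 difference was -0.35. Over all 41091 probe sets of single genes, the adjusted p with pairs by limma was 0.0265 for the first and 0.0454 for the second probe set of HMMR. Without pairs neither was called (adjusted p by limma 0.573 for the first). Over all probe sets of the array, same-numbered arrays of replicate 1 correlated at 0.09, so the limit of 0.1 set for pairs was not met there. The call of the second probe set with pairs ended whichever replicate was left out (0.0683 to 0.2) and after cyclic loess (0.0851).

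TPX2 and AURKA, which form the kinase module that HMMR binds, did not pass the test. TPX2 had log2 levels of 10.11, 10.02, 9.82 and 10.61 with miR-143 and 10.10, 10.38, 9.97 and 10.58 with mock. The groups overlapped fully, with replicate 4 the highest in each. The log2 difference was -0.12, with a 95% confidence interval of -0.26 to 0.027 with pairs (adjusted p by limma 0.628). AURKA had log2 levels of 11.46, 11.51, 11.40 and 11.88 with miR-143 and 11.52, 11.38, 11.49 and 11.83 with mock. Its log2 difference was 0.0055, with an interval of -0.11 to 0.12 with pairs and -0.27 to 0.29 without. On this brightest probe set neither interval reaches the difference seen for HMMR. The other AURKA probe sets gave 0.046 (204092_s_at) and -0.19 (208080_at). The latter lay near 7.3, below the median gene level of 7.56, and its miR-143 values spread from 7.05 to 7.55. Its intervals of -0.37 to 0.0023 with pairs and -0.42 to 0.054 without include the HMMR value of -0.36.

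PLK1, the Polo-like kinase that Aurora A activates, had log2 levels of 9.04, 8.78, 8.59 and 9.56 with miR-143 and 8.68, 8.99, 8.76 and 9.26 with mock. The difference was 0.07, with an interval of -0.13 to 0.27 with pairs, and it moved in opposite directions among the pairs. It was positive in replicates 1 and 4 (0.36 and 0.30) and negative in replicates 2 and 3 (-0.21 and -0.17). TACC3, an Aurora A substrate that links microtubules in kinetochore fibres, ranged from 9.25 to 10.19 with miR-143 and from 9.22 to 10.11 with mock. Its difference was -0.039 (interval -0.20 to 0.12). CKAP5, the microtubule polymerase that TACC3 recruits, ranged from 9.66 to 10.17 and from 9.64 to 10.13, with a difference of -0.028 (interval -0.14 to 0.083). A second CKAP5 probe set gave 0.04. NUMA1, which focuses spindle poles and anchors dynein at the cortex, ranged from 8.52 to 8.78 with miR-143 and from 8.41 to 8.74 with mock. Its difference was 0.058 (interval -0.092 to 0.21), and 4 dimmer probe sets gave -0.0071 to 0.034. All these intervals with pairs span 0.

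The chromosomal passenger genes gave no call. AURKB had log2 levels of 8.59, 8.33, 8.14 and 8.96 with miR-143 and 8.40, 8.63, 8.64 and 8.99 with mock. Its difference of -0.16 was next in size after that of HMMR, but the interval of -0.36 to 0.042 with pairs spans both 0 and the value of HMMR. The AURKB pairs ranged from -0.49 in replicate 3 to 0.20 in replicate 1. A second AURKB probe set gave -0.093. BIRC5 ranged from 10.27 to 11.21 with miR-143 and from 10.51 to 11.08 with mock, a difference of -0.062 (interval -0.23 to 0.11). Its other 3 probe sets gave 0.0037, -0.076 and -0.093. INCENP, the scaffold of the complex, was the dimmest of the 10 genes and the only one below the median gene, at 7.35 to 7.45 with miR-143 and 7.33 to 7.46 with mock. Its difference was 0.044 (interval -0.066 to 0.15). Without pairs the intervals were wider, at -0.38 to 0.52 for PLK1, -0.54 to 0.46 for TACC3, -0.52 to 0.28 for TPX2, -0.55 to 0.24 for AURKB and -0.49 to 0.37 for BIRC5. In that comparison these 5 intervals include the HMMR value of -0.36, so a difference of that size was not excluded for these genes, and whether HMMR differed from them was not tested.

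**Figure D1:**
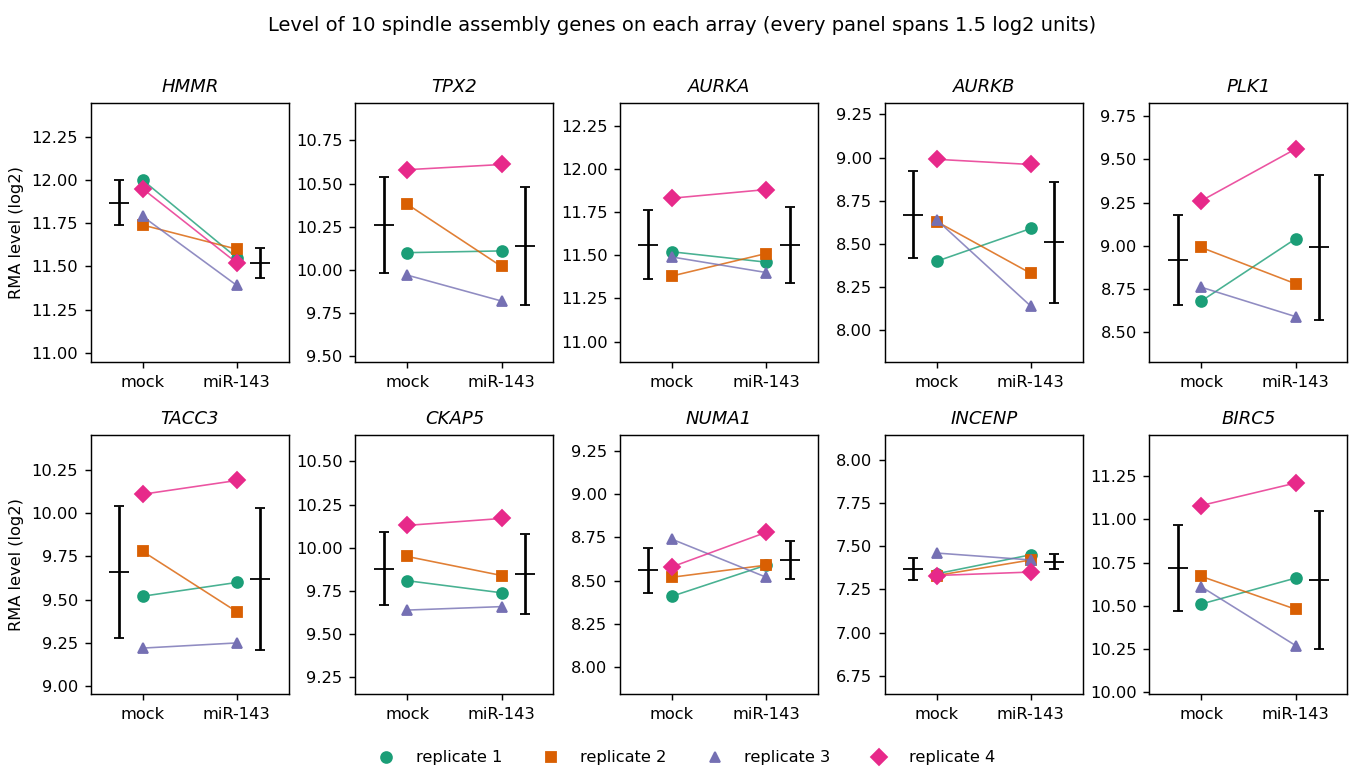
RMA log2 level of each of the 10 genes on every array, with lines joining same-numbered mock and miR-143 arrays and black bars showing mean ± SD of 4 arrays. The HMMR groups do not overlap, while in 7 of the other panels replicate 4 is the highest array of both groups.

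**Figure D2:**
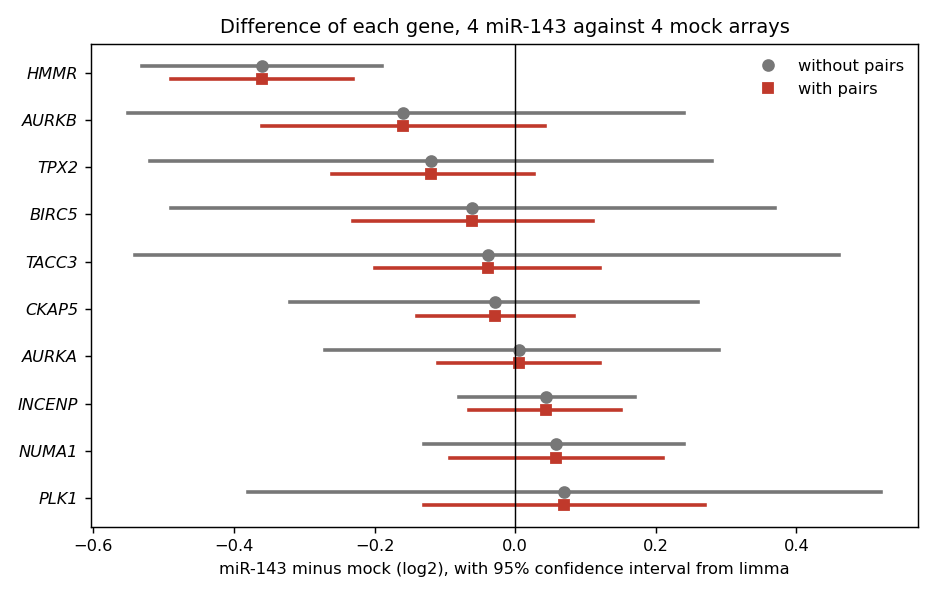
Log2 difference, miR-143 minus mock, of each gene with its 95% confidence interval from limma, without pairs in grey and with pairs in red. The interval of HMMR lies below 0 in both comparisons, and those of the other 9 genes span 0.

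In all, 6 of the 10 genes had negative and 4 had positive differences, with a median of -0.0338 against -0.00909 for all genes. Without pairs limma called 0 of the 10 genes and 0 of all genes (background 0%), while 1 of the 10 and 477 of all genes were under an unadjusted p of 0.05. With pairs 1 of the 10 was called lower and none higher, against 0.623% of all genes called lower and 0.167% called higher. Also 1 of the 10 was under an unadjusted p of 0.05 with pairs, against 9.55% of all genes. The arrays separated completely with miR-143 below mock for HMMR alone, against 1.24% of all genes, and for none with miR-143 above mock, against 0.719%. Of the 22 probe sets, 0 were called without pairs. With pairs 2 were called lower, against 0.416% of all probe sets. Also 2 separated completely with miR-143 below mock, against 1.25%. All of these were of HMMR. The 10 genes were chosen with earlier results of these data known, so these shares are a description and no independent support. The median of the 10 genes changed sign when mock replicate 4 was left out (0.0568, against -0.0032 for all genes). It also turned positive without miR-143 replicate 2 (0.00941) or without miR-143 replicate 3 (0.0501). It was -0.183 when miR-143 replicate 4 was left out, and -0.0668 when replicate 4 was left out of both groups. By pair, it was 0.091 in replicate 1, -0.17 in replicate 2, -0.16 in replicate 3 and 0.048 in replicate 4.

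**Figure D3:**
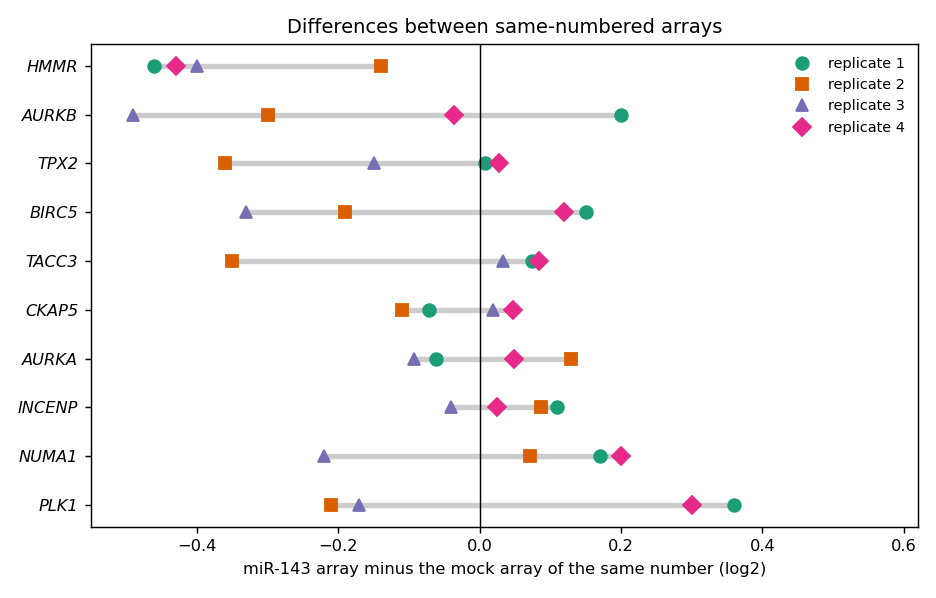
Log2 difference between the miR-143 array and the mock array of the same number for each gene, with 1 point per replicate and a grey bar from the lowest to the highest. All 4 HMMR differences are negative, from -0.46 to -0.14, and every other gene has differences on both sides of 0.

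The levels of most of these genes differed more between replicate 4 and the other replicates than between the groups. The mean of both replicate 4 arrays exceeded that of the other 6 by 0.68 for TACC3, 0.61 for BIRC5, 0.60 for PLK1, 0.53 for TPX2, 0.52 for AURKB, 0.40 for AURKA and 0.38 for CKAP5 on the log2 scale. For HMMR, NUMA1 and INCENP it was 0.057, 0.12 and -0.068. The median over all genes was 0.037, and over the brightest 25% of genes 0.29, so bright genes as a class read higher on replicate 4. Cyclic loess, which removes trends with level between arrays, brought that class to -0.0016. The excess was then still 0.43 for TACC3, 0.38 for PLK1, 0.33 for AURKB, 0.32 for BIRC5 and 0.26 for TPX2, and HMMR turned to -0.28. The part of cell cycle phase or array quality in this was not tested. The HMMR difference between groups was -0.33 without replicate 4 of both groups, and after cyclic loess it was -0.29 (adjusted p by limma 0.528 without pairs and 0.0318 with pairs). Over the loess values same-numbered arrays of replicates 1 and 2 correlated at 0.07 and 0.03, below the limit of 0.1 set for pairs, so the p without pairs applies there.

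**Figure D4:**
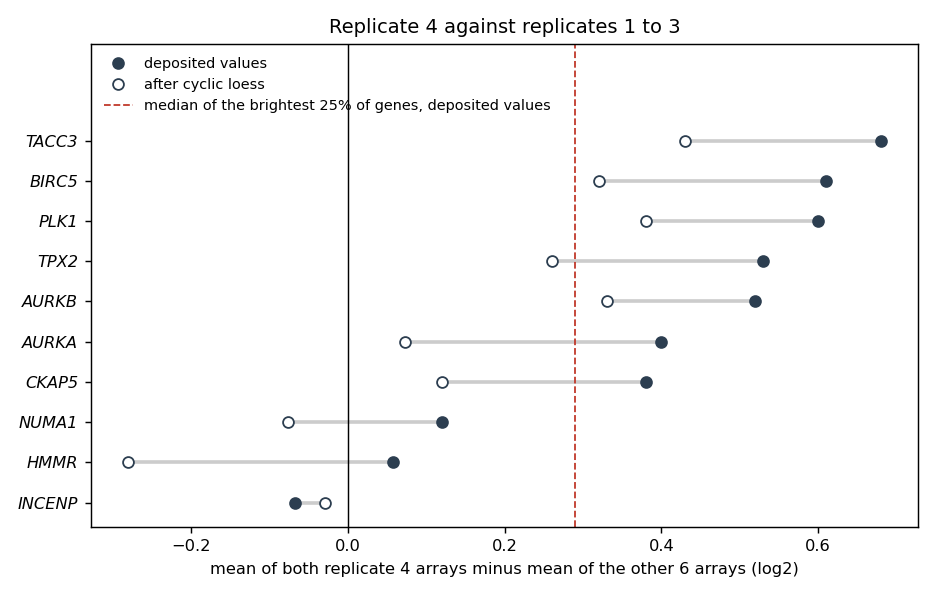
Mean log2 level of both replicate 4 arrays minus that of the other 6 arrays for each gene, in the deposited values (filled) and after cyclic loess (open), with the median of the brightest 25% of genes as a dashed line. TACC3, BIRC5, PLK1, TPX2 and AURKB stay above 0.2 after loess, and HMMR, NUMA1 and INCENP are then below 0.

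Promoters were set beside these levels because the genes are known for G2/M transcription, which a CCAAT box and a cell cycle genes homology region (CHR) can direct. RefSeq promoters of 300 bases, from 250 before to 50 after the start site, were at hand for 7 of the 10 genes. TTTGAA, a CHR sequence, was searched on both strands, as was CCAAT. The CHR letters were found for HMMR, PLK1, CKAP5 and INCENP, so for 4 of 7, against 15.4% of 27305 promoters. The CCAAT box was found for 6 of 7, against 35.7%, and both motifs for 4 of 7, against 6.08%. In HMMR, TTTGAA starts 28 and 22 bases before the start site, and in PLK1 29 bases before it. HMMR carries CCAAT 5 times on either strand, and the copies that begin 69 and 66 bases before the start site overlap. Genes with both motifs had replicate 4 differences of 0.60 (PLK1), 0.38 (CKAP5), 0.057 (HMMR) and -0.068 (INCENP) in the deposited values, or 0.38, 0.12, -0.28 and -0.029 after cyclic loess. Those without TTTGAA had 0.68 (TACC3), 0.52 (AURKB) and 0.12 (NUMA1), or 0.43, 0.33 and -0.077. These values overlap, and 7 promoters allow no comparison. The promoters of HMMR (GRCh38.p14, chr5:163460382-163460681, plus strand), PLK1 (chr16:23678639-23678938, plus strand) and TACC3 (chr4:1720381-1720680, plus strand) are shown as examples with and without the motifs. Capitals mark TTTGAA and CCAAT on either strand, and the matches describe these letters only.
HMMR: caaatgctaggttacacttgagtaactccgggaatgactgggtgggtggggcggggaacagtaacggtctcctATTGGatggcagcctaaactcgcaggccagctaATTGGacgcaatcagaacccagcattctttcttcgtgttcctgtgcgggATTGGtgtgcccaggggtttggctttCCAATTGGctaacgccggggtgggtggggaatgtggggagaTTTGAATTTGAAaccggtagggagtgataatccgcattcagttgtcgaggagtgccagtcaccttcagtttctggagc
PLK1: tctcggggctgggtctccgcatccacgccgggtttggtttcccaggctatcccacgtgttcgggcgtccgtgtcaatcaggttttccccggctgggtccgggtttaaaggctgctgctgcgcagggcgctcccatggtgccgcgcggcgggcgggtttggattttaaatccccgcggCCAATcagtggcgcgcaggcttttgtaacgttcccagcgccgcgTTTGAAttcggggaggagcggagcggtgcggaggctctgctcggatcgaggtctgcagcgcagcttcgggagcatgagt
TACC3: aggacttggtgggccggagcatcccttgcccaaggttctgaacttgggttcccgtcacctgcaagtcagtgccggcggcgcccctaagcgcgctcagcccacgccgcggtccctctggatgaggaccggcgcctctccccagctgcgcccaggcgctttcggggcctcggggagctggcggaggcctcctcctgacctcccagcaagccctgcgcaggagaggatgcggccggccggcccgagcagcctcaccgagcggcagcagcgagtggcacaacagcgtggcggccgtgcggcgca

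Partners of the 10 genes were read from lists of named genes, given as counts beside all genes, of which 55.6% had negative differences. Most genes of these lists were above the median gene, so all genes are a dimmer background. Outside the spindle and the cycle, 10 of 10 colorectal epithelium markers were negative (median -0.0347). So were 9 of 12 markers of other cells and 8 of 13 interferon genes. The part of level in these counts was not tested. Among 16 partners and paralogs of the Aurora and Polo kinases, 13 differences were negative, the median was -0.0341 and BORA was called lower with pairs. BORA helps Aurora A to activate PLK1. Its log2 level was 9.51, 9.62, 9.44 and 9.94 with miR-143 and 9.93, 9.82, 9.71 and 10.16 with mock. The groups overlapped, since miR-143 replicate 4 exceeded most mock arrays, but every pair was lower. The log2 difference was -0.28 (adjusted p by limma 1 without pairs and 0.0426 with pairs). The call of BORA ended whichever replicate was left out (0.0962 to 0.238) and after cyclic loess (0.087 with pairs and 0.307 without). It also ended with averaged probe sets (0.0929) and with the most variable probe set of each gene (0.0659).

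Among 10 genes of the Ran gradient and the importins, 8 differences were negative, the median was -0.085 and RAE1 was called lower with pairs. RAE1 is an mRNA export factor that binds NUMA1 at the spindle. Its log2 level was 11.61, 11.68, 11.44 and 11.90 with miR-143 and 12.00, 11.81, 11.94 and 12.29 with mock. Again miR-143 replicate 4 overlapped the mock arrays and every pair was lower. The log2 difference was -0.35 (adjusted p by limma 1 without pairs and 0.0294 with pairs). The call of RAE1 held without replicate 2 (0.0201) and ended without replicate 1, 3 or 4 (0.131, 0.167 and 0.16). It also ended when its probe sets were averaged, where the difference shrank to -0.22 (0.131), and with its most variable probe set (-0.27, 0.133). After cyclic loess the adjusted p was 0.0418 with pairs and 0.0614 without.

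The remaining spindle lists held no call in either comparison. In the list of passenger complex recruitment, which includes shugoshins and CDCA8, 10 of 11 differences were negative with a median of -0.0641. In the gamma-tubulin ring and augmin list, which nucleates spindle microtubules, 14 of 18 were negative with a median of -0.0621. Its leading gene was TUBG1, with a difference of -0.30 that was negative in all 4 pairs but missed the threshold (adjusted p with pairs by limma 0.0815). Spindle microtubule and pole proteins had 10 of 18 negative with a median of -0.0221. Cortical force generators, which pull on the spindle through dynein and NUMA1, had 9 of 14 negative with a median of -0.0336.

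Cell cycle lists were read beside the 10 genes, whose transcripts are known to move with the cycle. Of 20 G2/M transcripts, 17 had negative differences, with a median of -0.104, and CDK1, the kinase that drives entry into mitosis, was called lower with pairs. CDK1 had log2 levels of 12.08, 12.11, 11.92 and 12.19 with miR-143 and 12.49, 12.25, 12.29 and 12.56 with mock, so that the groups did not overlap. Its log2 difference was -0.32 (adjusted p by limma 1 without pairs and 0.0298 with pairs). The call of CDK1 held without replicate 2 (0.026) and ended without replicate 1, 3 or 4 (0.153, 0.165 and 0.16) and after cyclic loess (0.0538 with pairs and 0.378 without). It also ended when its probe sets were averaged (-0.26, 0.239) and with its most variable probe set (-0.25, 0.498). All 16 S phase transcripts had negative differences, with a median of -0.167 and none called. With pairs, 10 of the 16 and 7 of the 20 G2/M transcripts were under an unadjusted p of 0.05 by limma. All of these were lower, against 9.55% of all genes in either direction and 1366 of 19752 genes lower. Without pairs, 1 of the 16 S phase and 2 of the 20 G2/M transcripts were under that p by limma, against 477 of 19752 genes. Replicate 4 read higher by a median of 0.41 for the S phase list and 0.33 for the G2/M list. With mock replicate 4 alone left out, the S phase median was -0.054 and the G2/M median was 0.00959. Without replicate 4 of both groups they were -0.159 and -0.103. The part of a change in cell cycle phase in the HMMR difference was not tested.

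**Figure D5:**
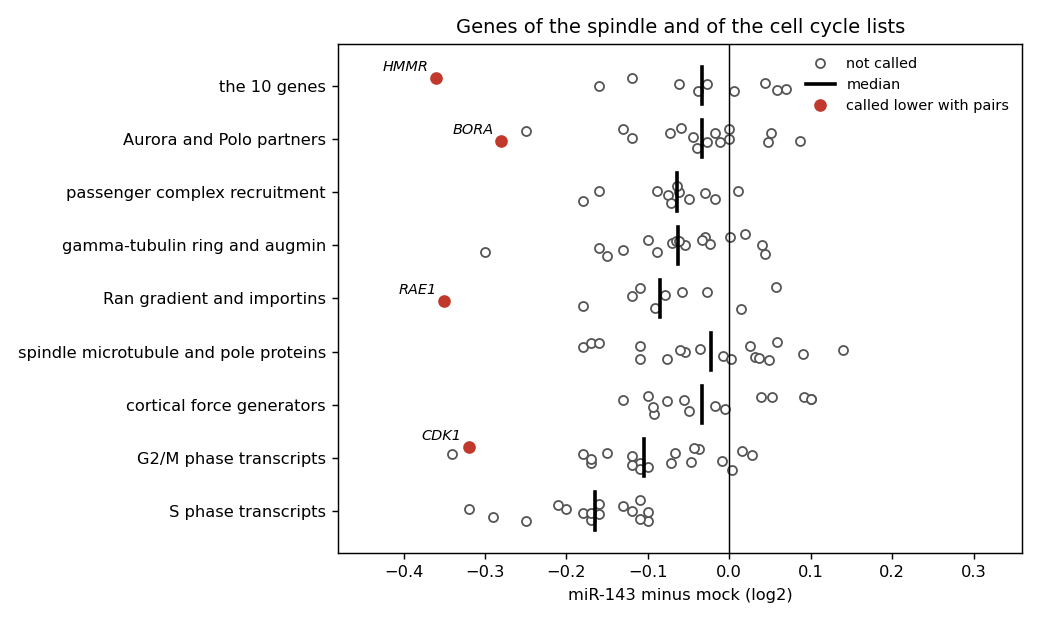
Log2 difference, miR-143 minus mock, of the 10 genes and of the genes in 8 lists of spindle and cell cycle genes, with 1 point per gene, black bars at the medians and genes called lower with pairs in red. HMMR, BORA, RAE1 and CDK1 are the called genes, and the S phase points all lie below 0.

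Across the 8 arrays, the genes whose log2 levels followed HMMR most closely were not of the spindle. They were sought among 9875 genes above the median level, and Pearson's r was 0.989 for QKI, an RNA-binding splicing regulator, 0.983 for ABAT, the GABA transaminase, 0.983 for SMNDC1, a splicing factor, 0.982 for ITM2B and 0.976 for ELK3, an ETS factor. In each the 4 miR-143 arrays lay below the 4 mock arrays, so these correlations largely restate the separation of the groups. Their log2 differences were -0.32, -0.54, -0.34, -0.32 and -0.24. With pairs QKI, ABAT and SMNDC1 were called lower (adjusted p by limma 0.0305, 0.0013 and 0.0355). ITM2B and ELK3 were not called (0.0646 and 0.122). The other 9 genes had an r with HMMR between -0.48 (INCENP) and 0.33 (AURKB). These are descriptions over arrays that share 2 groups and the replicate 4 shift.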

How the data were processed

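Total RNA of DLD-1 cells was measured on Affymetrix HG-U133 Plus 2.0 arrays, 4 with miR-143 and 4 mock transfected. The deposited table holds log2 values from RMA, run by the authors with affy, per the labels. Versions are not given in the sources used here. An array has no read depth, and precision is set by how many arrays there are. Of 54675 probe sets, 41091 were annotated to a single gene and kept, 1801 to several, 11721 to none and 62 were controls. No probe set of the 10 genes was shared with another gene. Each of 19752 genes was represented by its brightest probe set.

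Groups were compared by moderated two-sided tests (lmFit, then eBayes) of limma 3.58.1 under R 4.3.3. P-values were adjusted by Benjamini-Hochberg over all genes, with a threshold of 0.05. Adjusted p-values in the text are from this test. Single values were tested with an exact permutation test over 70 arrangements of the arrays. Tables and figures were made with Python 3.11.15, pandas 2.3.3 and matplotlib 3.10.9.

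The labels number both groups 1 to 4, and what a number stands for is not given in the sources used here. Numbers counted as pairs if, after subtraction of the group mean, arrays of the same number correlated above 0.1 in all 4 cases. Over the genes tested, the correlations were 0.11, 0.17, 0.58 and 0.81 for replicates 1 to 4, so the rule was met. That of replicate 1 was barely above it. Over all probe sets, replicate 1 had 0.09, and after cyclic loess replicates 1 and 2 had 0.07 and 0.03, so the rule was not met on those values. Replicates 1 and 2 with miR-143 correlated better with another number (0.25 and 0.54). The pairing comes from the data alone, so both comparisons are given.

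Both comparisons were tested on simulated data over 19752 genes with known changes. With pairs, 100% of changes of 0.8 and 95.2% of changes of 0.4 (log2) were found and 4.45% of calls were false. These values were 92.4%, 24.6% and 0% without pairs. The simulated arrays had true pairs that shared the deviations of these arrays, so the shares of both comparisons hold only for such.

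The 10 genes and all gene lists were chosen with earlier results of these data known. Up to 4 genes of lowest p with pairs were eligible for naming in each list, as were the 5 genes most like HMMR. An interferon list (13 genes, median -0.0193, 0 called) and a list of genes linked to miR-143, most of them named by the study (8 genes, all negative, median -0.408, 5 called lower with pairs) were also read. The study chose members of the latter on these samples, so it is not independent evidence. Listed genes without a probe set of their own were not analysed here. The alternatives changed the pairing, probe set, array normalization and weights, filters and replicates, and those that join pairs with another choice were added after seeing the data.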

Additional observations from a re-analysis of the deposited data

Results flagged for a closer look

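In 44 sets of 4 arrays (22 probe sets in each group) the highest or lowest array was compared with the range of its group, and chance alone marks about 1 in 20 sets. A probe set of AURKA, 204092_s_at, read 10.95 in mock replicate 4 against 10.72 to 10.76 in the other mock arrays. INCENP read 7.46 in mock replicate 3 against 7.33 to 7.34 in the other mock arrays.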

How the results depend on the processing

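Without pairs 0 genes were called lower and 0 higher, and 1 lower with the most variable probe set of each gene, 31 and 22 after cyclic loess, and 36 and 20 with array weights. With pairs 123 and 33 were called, 35 and 3 with averaged probe sets, 75 and 54 after cyclic loess and 98 and 23 with the most variable probe sets. Leaving out replicates gave 0 to 68 lower and 0 to 16 higher genes. Without pairs, calls appeared only when replicate 4 of both groups was left out (30 and 13). The replicate block called 1 of the 10 genes, HMMR (-0.36, adjusted p 0.0227 by limma), as it did after cyclic loess (-0.29, 0.0318), where the pairing rule was not met and the adjusted p without pairs was 0.528. Leaving out replicates gave 0 or 1 called gene, and medians of the 10 genes from -0.183 to 0.0568. Cyclic loess gave a median of 0.00852. Among genes named, the block also changed the call of BORA, RAE1, CDK1, QKI, ABAT and SMNDC1, and among the 10 genes no other. AURKA turned to -0.045 with averaged probe sets and -0.19 with the most variable one, with or without pairs. TACC3 turned to 0.0015 and CKAP5 to 0.016 after cyclic loess, and CKAP5 to 0.006 with averaged probe sets. Array weights turned NUMA1 1554663_a_at to 0.016, 214251_s_at to -0.011 and 235539_at to -0.0039, CKAP5 1555278_a_at to -0.01 and BIRC5 202094_at to -0.018. Leaving out replicates changed the sign of AURKA (-0.10 to 0.10), PLK1 (-0.12 to 0.20), TACC3 (-0.23 to 0.11), CKAP5 (-0.14 to 0.053) and BIRC5 (-0.25 to 0.065). It also did so for AURKA 204092_s_at (-0.056 to 0.11), CKAP5 1555278_a_at (-0.13 to 0.14), BIRC5 202094_at (-0.13 to 0.12) and 210334_x_at (-0.16 to 0.018), and for NUMA1 1554663_a_at (-0.034 to 0.034), 214250_at (-0.023 to 0.051), 214251_s_at (-0.02 to 0.082) and 235539_at (-0.015 to 0.034). None of these values passed the threshold, and the cause was not tested. HMMR, TPX2, AURKB, INCENP and NUMA1 kept their direction under every alternative run. Where an arm has few arrays, the spread is pooled over genes by limma. With 4 arrays a group, a value near 0 does not show that a gene did not change.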
